A study of Homo sapiens with 6 samples.

Results

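The KLF and ID transcription regulators were followed in RNA-SEQ data of NALM6 cells, a human line of B cell precursor acute lymphoblastic leukemia. The 10 genes were taken by name, as 7 Krüppel-like factors (KLF2, KLF4, KLF6, KLF9, KLF10, KLF13 and KLF16) and 3 inhibitors of DNA binding (ID1, ID2 and ID3), out of 57905 genes in the deposited count table. All 10 had a row there, and 9 passed the filter on low counts. NALM6 cells received either the solvent DMSO (3 libraries) or 500 nM of THZ1 (3 libraries), in both cases for 24 h. THZ1 is a covalent inhibitor of CDK7, the kinase that phosphorylates the tail of RNA polymerase II within the general transcription factor TFIIH. The question put to these genes was how each one's transcript level differed between THZ1-treated and DMSO-treated cells. The methods speak of independent experiments in general but do not say that the libraries of a treatment came from separate cultures, so p-values measure the spread between these libraries, which may be technical, and a single cell line at a single dose and time was measured.

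KLF proteins bind GC-rich and CACCC sequences in promoters through zinc fingers at the end of the protein, and differ in the cofactors that the rest of the protein recruits. KLF2, KLF4 and KLF6 can activate genes with histone acetyltransferases such as EP300, whereas KLF9, KLF10, KLF13 and KLF16 carry a domain that binds the SIN3A corepressor. ID proteins have a helix-loop-helix domain but no basic region that touches DNA. They pair with the E proteins TCF3, TCF4 and TCF12 and keep them from binding the E-box sites on which B cell genes depend.

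The promoters of 5 members are shown, since these are the genes whose levels and ratios the results turn on: KLF2, KLF6, ID1 and ID2, which were higher after THZ1, and ID3, which was lower. Each line gives the 250 bases before the annotated start in RefSeq, 5′ to 3′ on the strand of the gene (build GRCh38.p14). Capitals mark a TATA box with the letters TATAA (gene strand, first base 40 to 20 bases before the start), a GC box with the letters GGGCGG and a CCAAT box, the last of these read on both strands as the GC box was, so that they also appear as their reverse complements.
KLF2, chr19:16324576-16324825, plus strand: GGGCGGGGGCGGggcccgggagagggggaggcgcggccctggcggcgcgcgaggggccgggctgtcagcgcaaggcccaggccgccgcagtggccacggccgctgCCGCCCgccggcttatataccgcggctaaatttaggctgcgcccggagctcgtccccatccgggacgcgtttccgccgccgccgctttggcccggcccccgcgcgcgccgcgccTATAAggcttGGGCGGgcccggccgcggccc
KLF6, chr10:3785210-3785459, minus strand: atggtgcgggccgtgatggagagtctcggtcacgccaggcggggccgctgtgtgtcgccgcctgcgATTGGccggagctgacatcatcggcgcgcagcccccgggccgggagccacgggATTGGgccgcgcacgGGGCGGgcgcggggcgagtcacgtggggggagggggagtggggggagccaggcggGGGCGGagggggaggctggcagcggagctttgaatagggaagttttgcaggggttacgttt
ID1, chr20:31605039-31605288, plus strand: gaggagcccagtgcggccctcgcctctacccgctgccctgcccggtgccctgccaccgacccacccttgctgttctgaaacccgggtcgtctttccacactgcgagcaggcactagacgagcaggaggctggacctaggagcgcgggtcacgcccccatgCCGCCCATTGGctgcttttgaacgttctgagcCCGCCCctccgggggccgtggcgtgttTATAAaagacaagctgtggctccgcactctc
ID2, chr2:8681806-8682055, plus strand: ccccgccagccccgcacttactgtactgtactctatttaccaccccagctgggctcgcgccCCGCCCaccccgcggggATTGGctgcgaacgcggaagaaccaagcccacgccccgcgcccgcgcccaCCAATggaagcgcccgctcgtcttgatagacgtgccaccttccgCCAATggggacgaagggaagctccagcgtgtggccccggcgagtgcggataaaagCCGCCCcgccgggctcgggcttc
ID3, chr1:23559502-23559751, minus strand: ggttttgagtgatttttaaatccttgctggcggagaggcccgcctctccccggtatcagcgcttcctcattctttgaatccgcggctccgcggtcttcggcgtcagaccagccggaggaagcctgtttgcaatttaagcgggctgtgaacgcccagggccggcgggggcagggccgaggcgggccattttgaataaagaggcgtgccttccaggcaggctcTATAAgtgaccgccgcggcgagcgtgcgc
The KLF2 window held 4 GC boxes, and its TATA box began 31 bases before the start. ID1 had a TATA box at the same distance, with 2 GC boxes and 1 CCAAT box. In KLF6 and ID2 no TATAA stood in the searched position, and the windows held 2 GC boxes each with 2 and 3 CCAAT boxes. ID3 had a TATA box 29 bases before the start and neither a GC box nor a CCAAT box. Over the 9 members with a window examined here, 4 held the TATA box (KLF2, KLF4, ID1 and ID3), against 3.91% of 35116 RefSeq promoters. A GC box stood in 7 of the 9, against 42.6% of all promoters, and a CCAAT box in 5 of the 9, against 32.0%. Thus both genes with and without a TATA box were among those that were higher after THZ1. The KLF16 window was the richest in G and C (86.4%, with 7 GC boxes), and that of KLF9 the poorest (32.4%, with 0), where the median promoter had 58%. These matches are descriptions of the letters in the windows.

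The DMSO-treated libraries held 11015480 to 11164840 gene counts each, and those treated with THZ1 held 7876402 to 8314306, so that 3 counts equalled at most 0.253 and 0.415 CPM (counts relative to library size, after TMM scaling), respectively. All 11 B cell precursor markers in the table, PAX5 and EBF1 among them, were above 3 counts in every library, with summed levels of 3538 to 3740 CPM under DMSO and 1872 to 1898 CPM under THZ1. Summed markers of other cells were low, and higher in every THZ1-treated library. They went from 3.88–4.59 to 17.3–18.4 CPM for 6 myeloid markers (S100A8 at 0 in every library), from 0.246–0.496 to 6.05–6.78 CPM for 6 erythroid markers, and from 3.20–4.55 to 15.8–16.2 CPM for 5 stromal or epithelial markers. Of the myeloid markers, CD14 (0.636 and 8.71 CPM) and CSF1R (0.111 and 6.08 CPM) were called higher, LYZ lower (2.48 and 1.39 CPM) and MPO neither (1.082 and 1.204 CPM). The 5 T cell markers summed to at most 0.165 CPM under DMSO and 0.969 CPM under THZ1, with CD8A at 0. The part of these differences in the results was not tested.

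By edgeR's quasi-likelihood test, 6 members were higher after THZ1 (KLF2, KLF6, KLF10, KLF16, ID1 and ID2), 2 were lower (ID3 and KLF13), KLF9 was not called, and KLF4 was too low to test. A gene was called at a Benjamini-Hochberg adjusted p-value below 0.05 over all genes tested, at any fold. The share of all 16622 tested genes called was 43.5% higher and 41.1% lower, so a call by itself was the usual outcome in these libraries. The libraries of the treatments did not overlap for 7 of the 9 tested members, and for 84.7% of all tested genes. The median log2 fold change of the members tested was 2.78, and that of all tested genes was 0.03, with the middle 50% of genes between −0.90 and 1.46. Since the members were chosen with earlier results of these data known, this difference in medians is a description only. Members that were higher lay between the 73.9 and 91.5 percentiles of all fold changes, and ID3 lay at 18.6. All levels are relative to the other RNA of a library, and in bulk RNA a smaller number of expressing cells and less RNA per cell cannot be told apart.

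**Figure D1:**
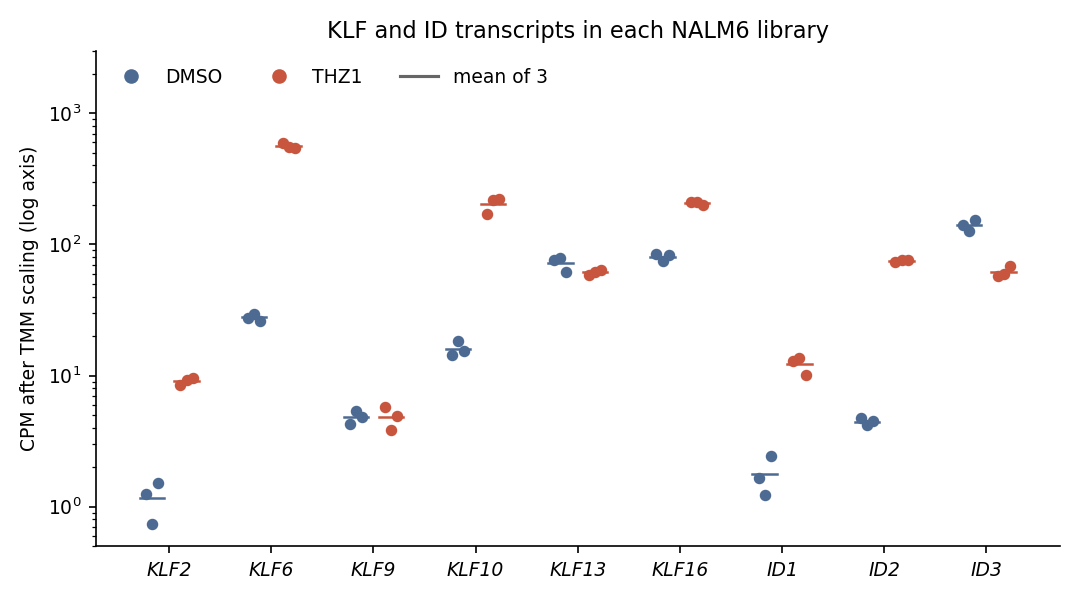
Level of each tested member in CPM after TMM scaling (log axis) in the 3 DMSO-treated and 3 THZ1-treated libraries; points are libraries and lines the means of 3. KLF6 and ID2 show the widest gaps, from 27.8 to 564 CPM and from 4.46 to 75.01 CPM, whereas the points of KLF9 and KLF13 overlap.

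KLF6, a factor of the early stress response that restrains growth in many tissues, had the largest change of the members. Its level was 27.4, 29.6 and 26.2 CPM in the DMSO-treated libraries and 596, 549 and 546 CPM in the THZ1-treated libraries. Every THZ1-treated library was thus far above every DMSO-treated one. The means were 27.8 ± 1.69 and 564 ± 28.3 CPM (SD, n = 3), which is 20.3-fold (log2 fold change 4.34 ± 0.08 SE, edgeR adjusted p = 5.66e-29). KLF6 lies on the minus strand of chromosome 10 (GRCh37, 3818188 to 3827473), and no other annotated gene overlaps it. Among the genes of the deposited expression table, its per-length level moved from the 54.5–56.2 percentiles of a DMSO-treated library to the 97.1–97.4 percentiles after THZ1.

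KLF2, which keeps lymphocytes quiescent and controls their traffic, was close to the lower limit of these libraries under DMSO. It had 15, 9 and 18 counts in the DMSO-treated libraries (1.24, 0.738 and 1.52 CPM) and 65, 67 and 72 counts in the THZ1-treated libraries (8.55, 9.27 and 9.63 CPM). The groups did not overlap. The level was 7.79-fold higher after THZ1 (log2 fold change 2.96 ± 0.26 SE, 95% confidence interval 2.43 to 3.49, edgeR adjusted p = 4.62e-12), a wide interval at these low counts. KLF2 is on the plus strand of chromosome 19 (GRCh37, 16435637 to 16439496).

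KLF4, known as a reprogramming factor and as a brake on B cell proliferation, had 0 counts in all DMSO-treated libraries and 0, 0 and 1 in the THZ1-treated libraries. At this depth a level below the limits of 3 counts given above was not detectable, and no fold is given. It lies on chromosome 9 (GRCh37, 110247133 to 110252763), where a lncRNA is annotated on the opposite strand.

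The members that bind SIN3A moved in different directions, with KLF10 and KLF16 higher, KLF13 lower and KLF9 not called. KLF10, a repressor first known as an early gene of TGF-beta signalling, had 14.5, 18.2 and 15.3 CPM under DMSO and 169.9, 216.6 and 220.9 CPM under THZ1. No libraries overlapped, and the THZ1-treated library with the lowest value was still far above the DMSO-treated ones. Means were 16.0 ± 1.96 and 202 ± 28.3 CPM (SD, n = 3), 12.7-fold apart (log2 fold change 3.66 ± 0.10 SE, edgeR adjusted p = 1.86e-24). The gene is on chromosome 8 (GRCh37, 103661012 to 103667953).

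KLF16, a repressor that binds GC boxes, was the KLF member with the highest per-length level under DMSO. It measured 84.6, 74.8 and 83.3 CPM in the DMSO-treated and 210.5, 209 and 201 CPM in the THZ1-treated libraries. The groups were separate, with little spread within either. Means were 80.9 ± 5.30 and 207 ± 4.86 CPM (SD, n = 3), a 2.56-fold difference (log2 fold change 1.36 ± 0.07 SE, edgeR adjusted p = 2.58e-17). KLF16 lies on the minus strand of chromosome 19 (GRCh37, 1852398 to 1863578) and is overlapped by lncRNA genes on the opposite strand. One of them, ENSG00000267125, was at 29.8 ± 4.52 and 57.2 ± 2.71 CPM (log2 fold change 0.94), and the other, ENSG00000267141, at 1.04 ± 0.947 and 13.3 ± 0.953 CPM (log2 fold change 3.65). Since the strand setting of the counting is not given in the sources used here, their reads and those of KLF16 cannot be told apart with certainty.

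KLF13, a factor of lymphocytes known for activating the chemokine gene CCL5, was 75.9, 78.7 and 61.3 CPM under DMSO and 58.5, 61.3 and 63.9 CPM under THZ1. The third DMSO-treated library fell among the THZ1-treated ones, so the groups overlapped. Means were 71.9 ± 9.36 and 61.2 ± 2.69 CPM (SD, n = 3), with a log2 fold change of −0.23 ± 0.09 SE and an edgeR adjusted p of 0.0185. This small difference was not called without DMSO replicate 1 (adjusted p = 0.0726) or without THZ1 replicate 1 (0.0716), by DESeq2 (0.149) or with upper quartile factors (log2 fold change −0.04, 0.688), and it was −0.36 without DMSO replicate 3. KLF13 spans 31619038 to 31727868 on the plus strand of chromosome 15 (GRCh37). The pseudogene UBE2CP4 lies inside it with 0 counts in every library.

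KLF9, a factor induced by glucocorticoid and thyroid hormones, gave 4.30, 5.41 and 4.81 CPM under DMSO and 5.79, 3.88 and 4.95 CPM under THZ1. Here the libraries of both treatments covered the same range. The means were 4.84 ± 0.556 and 4.87 ± 0.957 CPM (SD, n = 3), and the log2 fold change was 0.01 with a 95% confidence interval of −0.44 to 0.47 (edgeR adjusted p = 0.962). In the deposited FPKM values, the same gene was 3.20, 3.73 and 3.63 FPKM under DMSO and 1.85, 1.07 and 1.56 FPKM under THZ1, without overlap (limma on log2(FPKM + 1), log2 fold change −0.87, adjusted p = 0.00234). Libraries of the same treatment have nearly the same sorted values there, so this separation and p-value may understate the spread between libraries. The tables gave different answers for KLF9, and the cause was not tested. KLF9 is on chromosome 9 (GRCh37, 72999520 to 73029573).

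**Figure D2:**
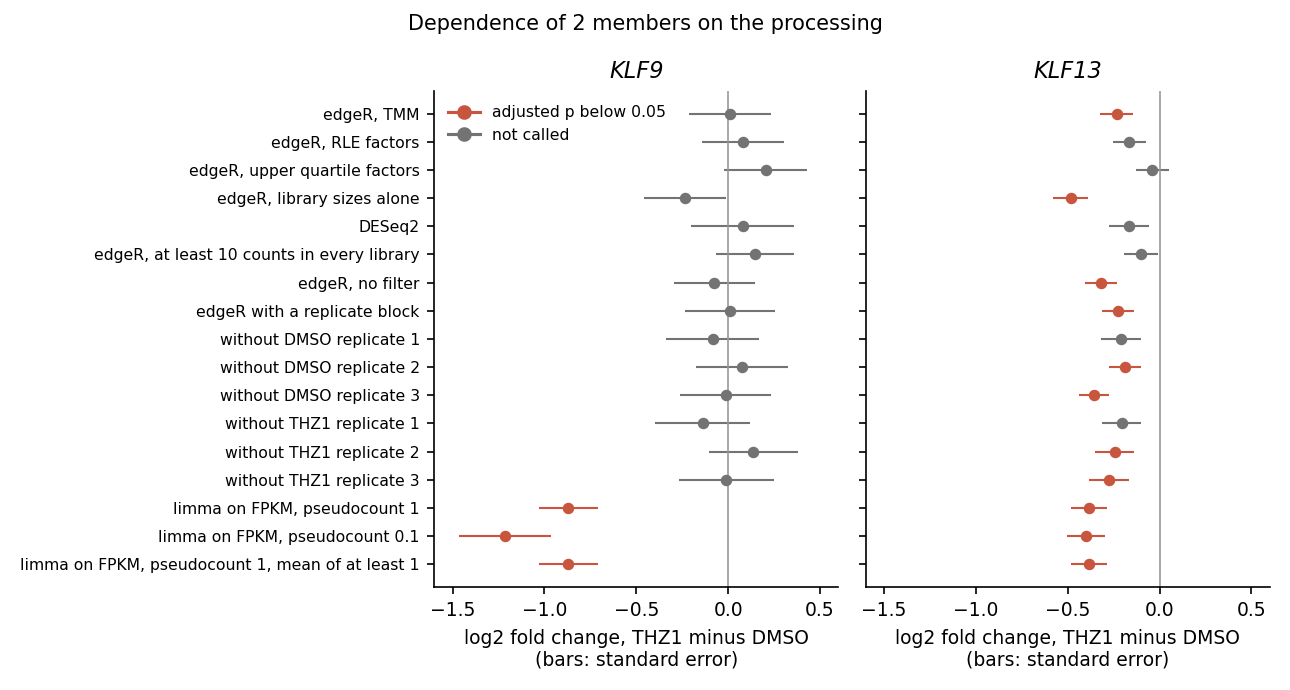
Log2 fold change (THZ1 minus DMSO) of KLF9 and KLF13 under each way of processing, with standard errors as bars and adjusted p-values below 0.05 in red. KLF9 lies on both sides of 0, from −1.21 to 0.20, and KLF13 stays below 0, from −0.48 to −0.04, with a call in some settings only.

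The ID members diverged, with ID1 and ID2 higher and ID3 lower after THZ1. ID2, an antagonist of E proteins with roles in innate lymphoid and dendritic cells, was at 4.71, 4.18 and 4.47 CPM under DMSO and at 73.0, 75.4 and 76.6 CPM under THZ1. The values within each treatment lay close together and the treatments were far apart. Means were 4.46 ± 0.267 and 75.01 ± 1.85 CPM (SD, n = 3), a 16.8-fold difference (log2 fold change 4.07 ± 0.12 SE, edgeR adjusted p = 2.55e-24). ID2 lies on the plus strand of chromosome 2 (GRCh37, 8818975 to 8824591). The lncRNA ID2-AS1, which overlaps it on the opposite strand, had 0 counts in every DMSO-treated library and 11, 6 and 4 counts in the THZ1-treated libraries, where ID2 had 545 to 573.

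ID1, a classical target of BMP and SMAD signalling, had 20, 15 and 29 counts under DMSO (1.65, 1.23 and 2.45 CPM) and 99, 99 and 75 counts under THZ1 (13.0, 13.7 and 10.03 CPM). The lowest THZ1-treated library was above the highest DMSO-treated one. It was 6.87-fold higher (log2 fold change 2.78 ± 0.23 SE, 95% confidence interval 2.30 to 3.25, edgeR adjusted p = 1.70e-12). ID1 is a short gene on the plus strand of chromosome 20 (GRCh37, 30193086 to 30194318).

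ID3, the ID gene that B lineage cells express together with TCF3, fell. Its level was 141, 127 and 154 CPM in the DMSO-treated and 57.6, 59.7 and 68.3 CPM in the THZ1-treated libraries. All THZ1-treated libraries lay below all DMSO-treated ones. Means were 141 ± 13.6 and 61.9 ± 5.69 CPM (SD, n = 3), so that the level after THZ1 was 0.440 of that under DMSO (log2 fold change −1.18 ± 0.08 SE, edgeR adjusted p = 3.78e-14). The gene is on the minus strand of chromosome 1 (GRCh37, 23884417 to 23885992). Even so, its per-length level was still above that of ID2 and of ID1 in every THZ1-treated library.

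Between genes, levels are compared per length of transcript, in FPKM of the deposited expression table, which lists 9 of the 10 members and not KLF4. Under DMSO, ID3 was highest at 277 ± 9.80 FPKM, followed by KLF16 at 77.2 ± 4.005, KLF13 at 21.6 ± 2.48, KLF6 at 13.1 ± 0.544 and KLF10 at 12.2 ± 1.25 (SD, n = 3). ID2 at 6.49 ± 0.3998, ID1 at 4.94 ± 1.48, KLF9 at 3.52 ± 0.281 and KLF2 at 2.41 ± 0.724 FPKM came last. Neighbours whose libraries overlapped were KLF6 and KLF10, ID2 and ID1, and ID1 and KLF9. After THZ1 the order was KLF6 at 219 ± 9.97, KLF16 at 171 ± 3.87, KLF10 at 132 ± 17.6, ID3 at 105 ± 8.87, ID2 at 86.0 ± 1.96, ID1 at 25.7 ± 4.23, KLF13 at 16.3 ± 0.820, KLF2 at 10.9 ± 0.815 and KLF9 at 1.49 ± 0.393 FPKM. KLF10 and ID3 were the neighbours in that order whose libraries overlapped. KLF6 thus moved from the fourth place to the top, and ID3 from the top to the fourth.

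Within the KLF transcripts, KLF16 held the largest share in every DMSO-treated library and KLF6 in every THZ1-treated library. KLF16 made up 60.9, 56.8 and 60.5% of the summed FPKM of the 6 listed KLF members under DMSO and 32.0, 30.9 and 30.2% under THZ1. The share of KLF6 went from 10.1 ± 0.461 to 39.8 ± 2.27% and that of KLF10 from 9.39 ± 1.09 to 24.0 ± 2.94% (SD, n = 3). The share of KLF13 went the other way, from 16.6 ± 1.64 to 2.95 ± 0.134%, while its own level differed by much less than those of KLF6 and KLF10. Each of these shares had no overlap between treatments (exact permutation, two-sided, p = 0.1, and 3 libraries against 3 can give no smaller p). In the deposited values KLF2 kept a similar share, 1.86 ± 0.580 and 1.98 ± 0.131% (exact permutation p = 0.8). In FPKM computed from the counts and annotated exon lengths, KLF2 had 0.919 ± 0.315 and 1.44 ± 0.0762% without overlap (exact permutation p = 0.1). The ratio of KLF6 to KLF16 was 0.159, 0.186 and 0.165 under DMSO and 1.33, 1.25 and 1.27 under THZ1, so the order of the pair turned in every library. Summed over the 6 genes, the level was 130.1 ± 3.64 FPKM under DMSO and 552 ± 7.5 FPKM under THZ1, and from counts per length, summed over all 7 KLF members, it was higher by 2.07 to 2.52 (log2) under all 4 scalings tried.

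**Figure D3:**
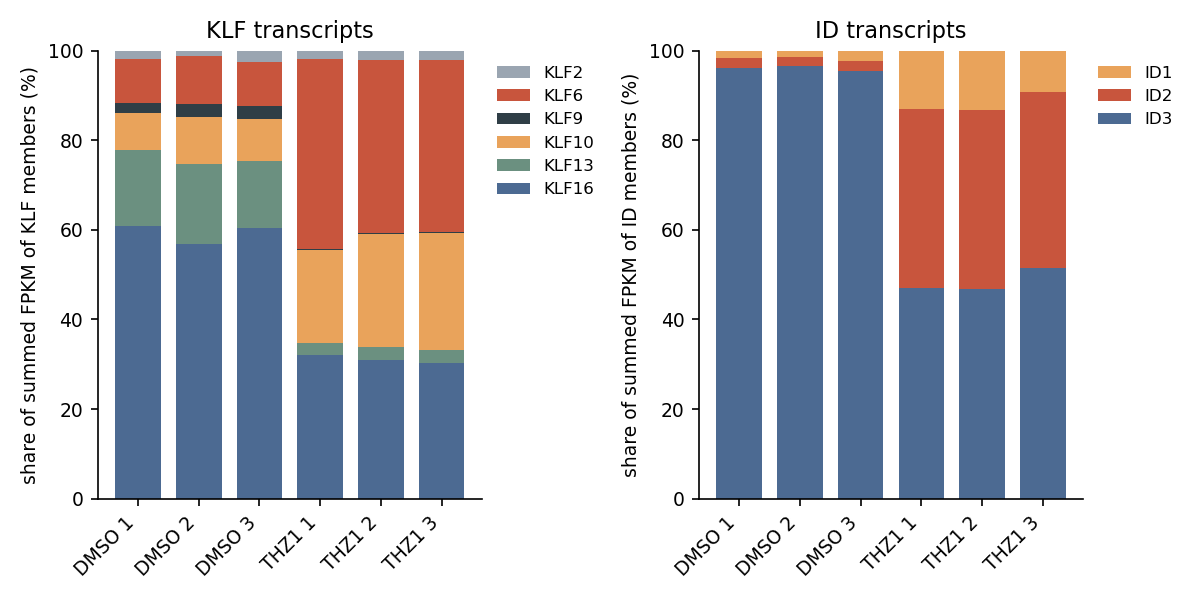
Share of each member in the summed FPKM of the 6 listed KLF members and of the 3 ID members, as stacked bars of 100% for each of the 6 libraries. KLF16 takes 56.8 to 60.9% of the KLF bars under DMSO and 30.2 to 32.0% under THZ1, and ID3 takes 95.6 to 96.5% of the ID bars under DMSO and 46.9 to 51.5% under THZ1.

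The transcripts of the 3 ID members changed from nearly a single gene to a mixture. ID3 made up 96.1, 96.5 and 95.6% of their summed FPKM under DMSO and 47.0, 46.9 and 51.5% under THZ1. ID2 went from 2.25 ± 0.0725 to 39.7 ± 0.380% and ID1 from 1.71 ± 0.451 to 11.9 ± 2.24% (SD, n = 3). All 3 shares were free of overlap (exact permutation, two-sided, p = 0.1, again the limit). For each ID3 transcript per length there were 0.0235 ± 0.000787 of ID2 under DMSO and 0.821 ± 0.0506 under THZ1. The sum of ID1, ID2 and ID3 was 288 ± 11.5 and 217 ± 6.86 FPKM in the deposited values. From counts per length its log2 difference was −0.44 with library sizes alone, −0.19 with TMM (85.2 ± 3.19 against 97.4 ± 9.66, overlapping, exact permutation p = 0.2) and near 0 with upper quartile factors (91.1 ± 3.58 against 91.1 ± 8.90). Unlike the shares, the sum thus had no direction that held under every scaling. These shares and sums leave out ID4, the remaining ID gene, which is not a member. It was at 10.5 ± 0.516 FPKM under DMSO, above ID2 and ID1 in every library, and at 18.2 ± 2.60 FPKM after THZ1.

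Of the E protein genes, TCF3 and TCF12 were lower and TCF4 was not called. TCF3, which encodes the E proteins E12 and E47, was at 529 ± 13.0 CPM under DMSO and 363 ± 22.5 CPM under THZ1 (log2 fold change −0.54 ± 0.07 SE, edgeR adjusted p = 9.44e-09). TCF12 was at 99.4 ± 13.3 and 66.0 ± 2.64 CPM (log2 fold change −0.59 ± 0.09 SE, adjusted p = 2.77e-07). TCF4 had 264 ± 28.9 and 272 ± 7.14 CPM, with a log2 fold change between −0.11 and 0.19 (95% confidence interval, adjusted p = 0.620). The summed level of the E protein genes was 312 ± 15.4 FPKM under DMSO and 190.5 ± 7.94 FPKM under THZ1, and from counts per length it was lower under all 4 scalings. For each unit of E protein transcript, ID1, ID2 and ID3 together gave 0.934, 0.839 and 1.00 units in the DMSO-treated libraries. The THZ1-treated libraries had 1.11, 1.18 and 1.13 units, and ID4 was not counted in either treatment. This ratio was thus slightly higher after THZ1 without overlap, by 0.30 on the log2 scale (exact permutation, two-sided, p = 0.1, again the limit). In these values TCF4 made up only 8.43 ± 0.437% of the E protein sum under DMSO and 13.1 ± 0.785% under THZ1. From counts per length, TCF4 was divided by 29166 annotated exon bases and TCF3 by 6368, and no other length was tried. The ratio thus depends on the lengths taken. The ratio of ID3 alone to TCF3 moved the other way, from 1.08 ± 0.0751 to 0.710 ± 0.0356.

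**Figure D4:**
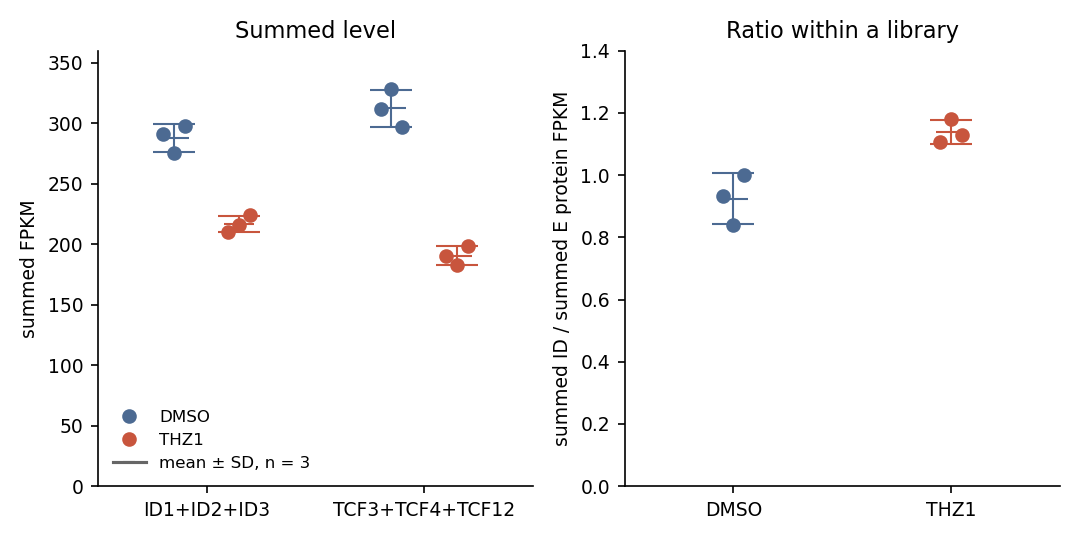
Summed FPKM of ID1, ID2 and ID3 and of the E protein genes (left) and their ratio (right) in each library. DMSO and THZ1 are in separate colours. Both sums of these deposited values are lower after THZ1, the ID sum not under every scaling, while the ratio goes from 0.839–1.00 to 1.11–1.18.

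Of 14 listed genes for ID4 and helix-loop-helix partners, 5 were tested, with 2 higher, 2 lower and 1 not called (median log2 fold change 0.04, against 0.03 over all tested genes). Beside the E proteins these were ID4, the remaining gene of the ID family, at 13.7 ± 1.07 and 27.9 ± 3.57 CPM (log2 fold change 1.02, edgeR adjusted p = 7.16e-09), and LYL1, a hematopoietic partner of E proteins, at 55.7 ± 8.89 and 68.2 ± 3.66 CPM (0.29, 0.00623). ID4 was higher like ID1 and ID2, so 3 of the 4 ID genes were higher and ID3 was lower. The count of genes called higher in this list was 1 without DMSO replicate 2 or without THZ1 replicate 2.

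Of 20 other KLF and SP genes listed, 10 were tested, with 3 higher, 4 lower and 3 not called, and a median log2 fold change of 0.10. Over all tested genes 43.5% were higher and 41.1% lower, and the list was not tested against the members. KLF5, a factor of proliferating epithelia, was higher, at 1.80 ± 0.229 and 6.68 ± 0.166 CPM (log2 fold change 1.89, edgeR adjusted p = 2.39e-08). KLF1, the erythroid factor, had 3, 1 and 2 counts under DMSO and 17, 22 and 20 under THZ1, a ratio of 15.9 with a 95% counting interval of 6.90 to 45.2. SP7, the osteoblast factor osterix, had 0 counts in every DMSO-treated library and 116, 79 and 102 in the THZ1-treated libraries, at least 53.3-fold higher against a floor of 3 counts per library. These intervals and floors cover counting error only. SP2 was the most reduced, at 28.5 ± 2.83 and 4.32 ± 1.51 CPM (log2 fold change −2.71, adjusted p = 2.05e-15), followed by SP4 at 36.7 ± 5.80 and 14.4 ± 1.21 CPM (−1.35, 2.06e-11). Smaller decreases were called for SP1, the ubiquitous activator at GC boxes (98.8 ± 11.5 and 75.1 ± 3.99 CPM, −0.40, 8.36e-05), and for KLF12, a repressor that recruits CtBP (26.0 ± 2.08 and 19.96 ± 3.88 CPM, −0.38, 0.00600). KLF3, KLF7 and SP3 were not called.

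**Figure D5:**
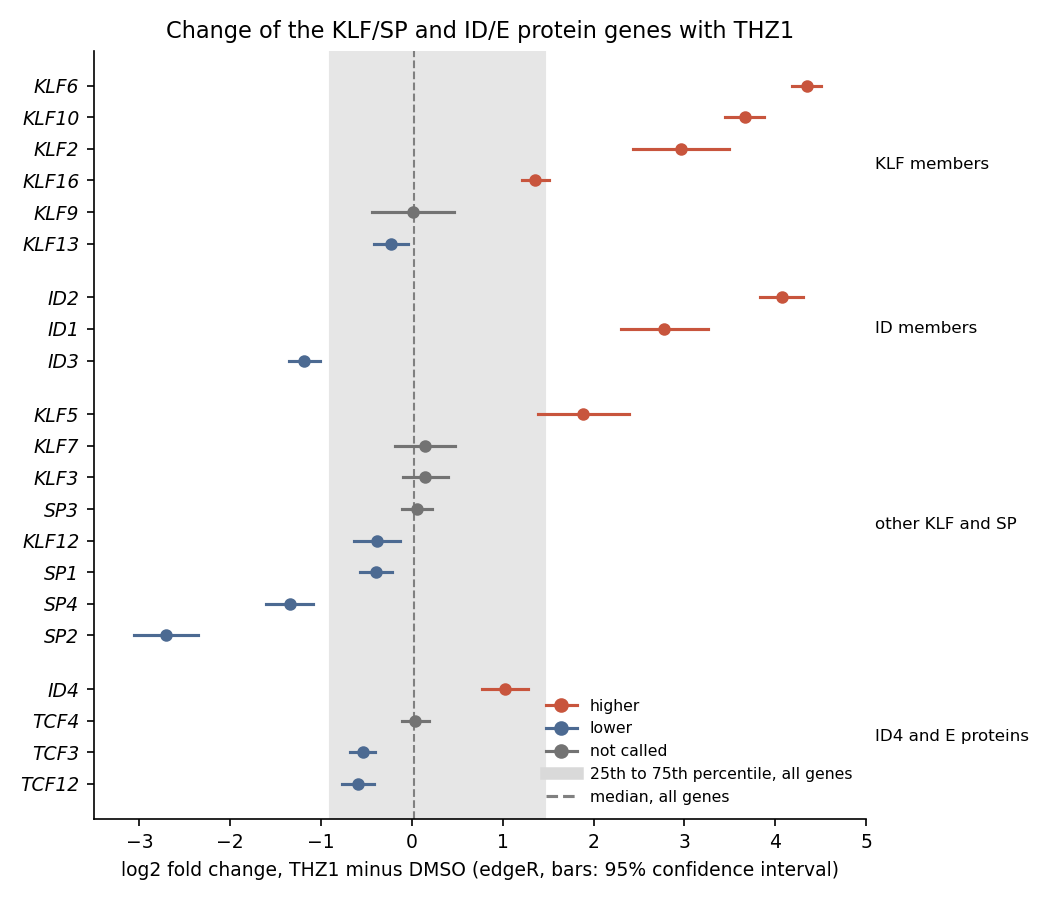
Log2 fold change (THZ1 minus DMSO, edgeR) with its 95% confidence interval, coloured by call. Tested members, other KLF and SP genes, ID4 and the E protein genes are drawn. SP7, KLF1 and LYL1 were called higher but are not drawn, and SP7 rose by more than any member. KLF6 at 4.34 and ID2 at 4.07 lead the members, and ID3 at −1.18 is the lowest of them.

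Genes of the pathways that act on the members or with them were counted in 4 lists, to be read against the 43.5% of all tested genes called higher and the 41.1% called lower. Of 31 BMP and TGF-beta components, the pathway that induces ID1, ID2, ID3 and KLF10 in many cells, 22 were tested, with 8 higher, 6 lower and 8 not called (median log2 fold change 0.09). The inhibitors SMAD7 (6.34 ± 1.11 and 43.3 ± 2.95 CPM, log2 fold change 2.77, edgeR adjusted p = 1.22e-18) and SKI (6.69 ± 0.739 and 24.5 ± 2.77 CPM, 1.87, 2.66e-13) led those that were higher. The receptors ACVR2B (20.4 ± 1.86 and 4.89 ± 0.448 CPM, −2.06, 3.61e-13) and TGFBR1 (15.2 ± 1.45 and 6.41 ± 1.18 CPM, −1.24, 4.57e-08) were the most reduced. On the deposited FPKM values, limma called 4 higher and 10 lower in this list.

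Among the cofactors of KLF proteins, 17 were tested, with 6 higher, 7 lower and 4 not called (median log2 fold change −0.18). Of the SIN3 complex, the histone-binding subunit ING1 (38.0 ± 2.99 and 114.5 ± 6.04 CPM, log2 fold change 1.59, edgeR adjusted p = 1.80e-17) and the deacetylase HDAC1 (246 ± 13.1 and 573 ± 7.81 CPM, 1.22, 5.02e-17) were higher. RBBP7, a histone chaperone of the same complex, was lower (204 ± 3.70 and 101 ± 5.92 CPM, −1.02, 2.42e-14), and so was the corepressor CTBP2 (47.8 ± 4.18 and 14.9 ± 1.06 CPM, −1.68, 5.78e-15).

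Of 16 listed regulators of KLF2 and KLF4, 15 were tested, with 6 higher, 6 lower and 3 not called (median log2 fold change −0.15). FOXO4 (10.4 ± 1.77 and 56.9 ± 2.62 CPM, log2 fold change 2.45, edgeR adjusted p = 9.07e-19) and FOXO1 (80.0 ± 6.97 and 161 ± 12.0 CPM, 1.01, 3.23e-13), transcription factors that act upstream of KLF2 in lymphocytes, were higher. MEF2A, an effector of the ERK5 pathway (134 ± 12.8 and 77.9 ± 8.38 CPM, −0.78, 6.02e-10), and HDAC4, a deacetylase that binds MEF2 proteins (10.7 ± 2.16 and 5.93 ± 1.27 CPM, −0.86, 0.000170), were lower.

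Of 10 listed trafficking genes that KLF2 is known to regulate in lymphocytes, 8 were tested, with 4 higher, 2 lower and 2 not called (median log2 fold change 0.41). The chemokine receptor CCR7 was at 0.717 ± 0.199 and 4.01 ± 0.979 CPM (log2 fold change 2.45, edgeR adjusted p = 1.28e-07), and S1PR1, the receptor for exit from lymphoid organs, at 4.04 ± 0.641 and 9.12 ± 2.37 CPM (1.17, 9.33e-06). Among the lower genes was CD55 (30.2 ± 1.00 and 13.0 ± 1.58 CPM, −1.21, 1.15e-10).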

How the data were processed

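RNA-SEQ counts and expression values of 3 DMSO-treated and 3 THZ1-treated NALM6 libraries were used, grouped by the treatment in the labels. The authors deposited raw counts per gene, which their methods describe as reads mapped to GRCh37 with STAR and counted with htseq-count. A second table, deposited on a log2 scale, was read as log2(FPKM + 1) from RSEM for 16730 genes and taken back to FPKM. The design had assumed a linear scale. Libraries of one treatment have nearly the same sorted values there, by a step not named in the sources used here. The table's fold changes, p-values and FDR values are the authors' comparison and were not used. Symbols not in that table, KLF4 among them, were matched through GENCODE 44 mapped to GRCh37.

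Counts were filtered with filterByExpr (at least 15 counts in total and a count cut of 10), given TMM factors and tested with edgeR 4.0.16 (R 4.3.3) over 16622 genes. CPM values use the TMM-scaled library sizes. limma 3.58.1 and DESeq2 1.42.0 served as alternatives, with upper quartile or RLE factors, unscaled libraries, other filters, a replicate block and each library left out. Shares and ratios were tested by exact permutation with scipy 1.17.1. Replicate libraries differed by more than sampling noise (chi-square per gene 1.78 to 8.61). Sums of levels under other scalings were added after seeing the data. Promoter windows and their coordinates are RefSeq's, in GRCh38.p14, and all gene coordinates are in GRCh37. The letters CACGTG, as the only form of the E-box, and the letters TGACG were also searched. They stand in 6.34% and 21.2% of all promoters. Other forms of the E-box were not searched.

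The members and lists were chosen with earlier results of these data known, and the lists were written from general knowledge. All members with counts were named, with the 2 highest and 2 lowest called genes of each other list, the called KLF and SP genes, ID4, TCF3, TCF4, TCF12 and genes overlapping a member. Some genes under this rule are not reported here. Of the 20 other KLF and SP genes, 18 had a row of counts.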

Additional observations from a re-analysis of the deposited data

How the results depend on the processing

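KLF6, KLF10, KLF16, ID1 and ID2 were called higher and ID3 lower in all 16 alternatives, and KLF2 higher in the 15 that tested it, with log2 fold changes of 3.97 to 4.54 for KLF6, 3.54 to 4.26 for ID2, 1.83 to 3.17 for KLF2 and −1.43 to −0.99 for ID3. The members called lower numbered 1 in place of 2 with RLE factors, upper quartile factors, DESeq2 or at least 10 counts in every library, and 1 to 2 when a library was left out (1 without DMSO replicate 1 or THZ1 replicate 1). KLF9 was called lower in 3 of the 16 alternatives, all of them limma fits on FPKM, which called ID3 and KLF13 lower too. KLF13 was called in 10 of the 16, missing the call also with RLE factors (log2 fold change −0.16, adjusted p = 0.0892) and with at least 10 counts (−0.10, 0.316). KLF9 turned to −0.24 with library sizes alone, −0.074 without a filter, −0.87 with limma at a pseudocount of 1 and also at a mean of at least 1, and −1.21 at 0.1, and ranged from −0.14 to 0.14 when a library was left out. The cause was not tested. Without a filter KLF4 was fitted at 2.13 from a single count (adjusted p = 0.377). Scaling moved the median of all genes by 0.19 with upper quartile factors, −0.25 with library sizes alone and −0.26 with limma at a pseudocount of 1, and the share of calls that were higher from 51.4% to 57.2%, 44.2% and 44.6%. In the other lists, upper quartile factors called 5 KLF and SP genes higher in place of 3. Library sizes alone and all limma fits called 1 helix-loop-helix gene higher in place of 2 and 3 regulators of KLF2 and KLF4 in place of 6, and the helix-loop-helix count was 1 to 2 when a library was left out. The limma fits called 4 BMP and TGF-beta genes higher in place of 8, 2 trafficking genes higher in place of 4 and 4 lower in place of 2, and at both pseudocounts 10 BMP and TGF-beta genes lower in place of 6. With at least 10 counts, 1 trafficking gene was lower. The shares of KLF16 and ID3, and the ratio of summed ID to summed E protein level, kept their direction in all 8 alternatives. Their p was limited by the number of libraries. The other shares and ratios were not put through all of these alternatives. Deviations of libraries with the same replicate number correlated at −0.00400 to 0.0206 and only number 3 matched its own best. No pairing by number was thus seen, but 3 libraries of each treatment cannot exclude a weak one. With a replicate block, 6 members were called higher and 2 lower (KLF13 −0.23), and 7181 genes higher and 6786 lower of all tested. Depth limits KLF4, KLF2 and ID1 most.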
